A study of Mus musculus with 32 samples.

Results

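Hypoxia-program osteoblasts are the osteogenic cells of these cultures with the highest combined level of 8 genes known to be switched on by hypoxia-inducible factor (HIF), namely *Egln3*, *Ero1l*, *Ndrg1*, *Car12*, *P4ha2*, *Adm*, *Bnip3* and *Ankrd37*. They were 5720 of 22877 eligible osteogenic cells and of 107853 barcodes in all. The cells were marrow stromal cells grown in osteogenic medium (BMSC-OBs), from the femurs of Diversity Outbred (DO) mice, an outbred stock in which every mouse has its own genotype. The labels give no treatment, strain contrast or age by which pools could be compared, so comparisons were made between classes of cells within a pool. Cells of 77 mice were mixed into 16 pools of 4 or 5 mice before single-cell RNA-seq (scRNA-seq), and each pool was sequenced in 2 runs, of which run HGYVNCCX2 was used. The files count unique molecular identifiers (UMIs, each standing for a captured transcript) per gene and barcode and do not tie a cell to its mouse.

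A barcode was eligible with 400 to 6200 genes detected, 5000 UMIs or more and no more than 10% of them mitochondrial, fewer than 2 UMIs of the myeloid gene *Tyrobp* per 10000, and at least 3% of UMIs from *Ibsp*, which encodes the mineral-binding bone sialoprotein. The score was the mean over the 8 genes of the natural log of 1 plus UMIs per 10000, and the cells with the highest 25% of scores over all pools together were taken. They were compared with the 11441 cells whose score lay at or below the median of their own pool, called low-score cells here. The lowest score inside the limit was 1.33. The 100 cells just inside it had UMIs for 7.06 of the 8 genes on average and a median of 20140.5 UMIs, and those just outside had 6.84 genes and 19774 UMIs. The limit cuts a continuous range, since 2369 eligible cells (10.4%) lay within 0.1 of it, and the class is a range of the score and not a separate type.

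HIF is a transcription factor made of an oxygen-regulated alpha subunit and its partner ARNT. With ample oxygen, prolyl hydroxylases of the EGLN family mark the alpha subunit and the VHL protein sends it to degradation. With little oxygen the subunit lasts, and the complex binds ACGTG or GCGTG elements near genes for glucose uptake, glycolysis, pH control, collagen-modifying enzymes and vessel growth. Osteoblasts are known to rely on glycolysis while they make matrix, and HIF in osteoblasts is known to couple bone formation to vessel growth.

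Promoter sequences of 4 score genes are shown because the cells were chosen by known HIF targets. They are RefSeq sequences for GRCm38.p6, the 250 bases before the start site on the strand of the gene, and capitals mark ACGTG or GCGTG on either strand (CACGT or CACGC when on the other strand). *Egln3* (chr12:54203875-54204124, minus strand) and *Ero1l* (listed as *Ero1a*, chr14:45318573-45318822, minus strand) are genes with large differences between the classes. *Bnip3* (chr7:138909507-138909756, minus strand) held the most matches, and *Car12* (chr9:66713436-66713685, plus strand) held none.
Egln3: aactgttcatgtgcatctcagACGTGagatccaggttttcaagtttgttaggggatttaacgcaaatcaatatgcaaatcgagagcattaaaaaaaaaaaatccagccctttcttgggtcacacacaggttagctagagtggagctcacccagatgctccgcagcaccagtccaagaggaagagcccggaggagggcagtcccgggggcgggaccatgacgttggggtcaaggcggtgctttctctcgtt
Ero1l: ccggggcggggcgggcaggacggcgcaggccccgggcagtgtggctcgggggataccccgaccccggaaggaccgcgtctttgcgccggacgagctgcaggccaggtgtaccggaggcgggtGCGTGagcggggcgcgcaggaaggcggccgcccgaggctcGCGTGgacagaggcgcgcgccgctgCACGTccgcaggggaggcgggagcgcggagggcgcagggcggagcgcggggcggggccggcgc
Bnip3: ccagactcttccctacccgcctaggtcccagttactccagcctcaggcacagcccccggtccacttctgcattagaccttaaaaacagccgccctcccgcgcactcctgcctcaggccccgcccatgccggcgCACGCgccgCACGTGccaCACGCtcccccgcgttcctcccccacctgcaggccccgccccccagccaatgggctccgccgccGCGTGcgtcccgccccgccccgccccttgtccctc
Car12: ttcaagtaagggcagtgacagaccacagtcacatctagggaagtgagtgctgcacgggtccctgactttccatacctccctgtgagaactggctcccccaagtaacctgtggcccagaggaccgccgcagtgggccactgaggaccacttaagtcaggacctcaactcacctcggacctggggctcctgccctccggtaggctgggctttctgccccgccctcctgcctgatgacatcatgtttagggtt

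The *Egln3* promoter held 1 match, *Ero1l* 3, *P4ha2* 3, *Adm* 2, *Ankrd37* 4 and *Bnip3* 5, of which a pair overlap in CACGTG, a word that reads the same on both strands. *Ndrg1* had no entry. Thus 6 of 7 score genes with a promoter held a match, against 38.6% of all 32851 promoters of this length. Of the glycolysis genes described below, 13 of 18 held one (72.2%), and of other HIF target genes 29 of 42 (69.0%). A match describes the letters and not a bound site.

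The share of hypoxia-program cells among eligible cells varied widely between pools. It was lowest in pool 1, with 1 of 771 cells (0.13%, exact Clopper-Pearson 95% interval 0.00328% to 0.721%), and in pool 2, with 2 of 1140 cells (0.175%, 0.0213% to 0.632%). It was highest in pool 7, with 196 of 438 cells (44.7%, 40.0% to 49.5%). These intervals cover counting error only. Pools 1 and 2 lay far below every other pool, the nearest being pool 14 at 7.60%.

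In descending order, pool 13 had 41.8%, pool 10 had 37.2%, pool 5 had 36.4%, pool 17 had 34.4%, pool 9 had 33.5%, pool 3 had 29.1% and pool 11 had 27.9%. Pools 4, 6, 18, 12 and 8 lay between 17.2% and 21.8%. The intervals of neighbouring pools in this order mostly overlap, and the mean over 16 pools was 24.4% ± 13.8 (SD). The median UMI count per eligible cell was 23232 in pool 1 and 17902 in pool 2, inside the range of 16152 to 31966 over all pools.

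Cells of a pool can be split in part by the sex of their mouse, since *Xist* is expressed from the inactive X chromosome of females and *Ddx3y*, *Eif2s3y*, *Kdm5d* and *Uty* lie on the Y chromosome. In 10 pools at least 20 eligible cells carried UMIs of each kind alone. The other pools held almost only 1 kind and could not be compared. These were Y-linked cells in pools 1 (722 against 0 *Xist* cells), 2 (1014 against 1), 3, 17 and 18, and *Xist* cells in pool 4 (1686 against 1). Both pools with the lowest shares are thus left out of the comparison by sex. In pool 6, 5 of 873 cells with *Xist* UMIs were hypoxia-program cells (0.573%, 0.186% to 1.33%) against 179 of 243 cells with Y-linked UMIs (73.7%, 67.7% to 79.1%). Pool 9 showed the opposite order, with 56.4% of 864 *Xist* cells and 9.19% of 729 Y-linked cells. Pool 7 had 3.03% of *Xist* cells against 54.1% of Y-linked cells, pool 12 had 34.4% against 2.05%, and pool 14 had 17.5% against 0.166%. In pool 11 both were closer, at 23.3% and 29.4%.

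**Figure D1:**
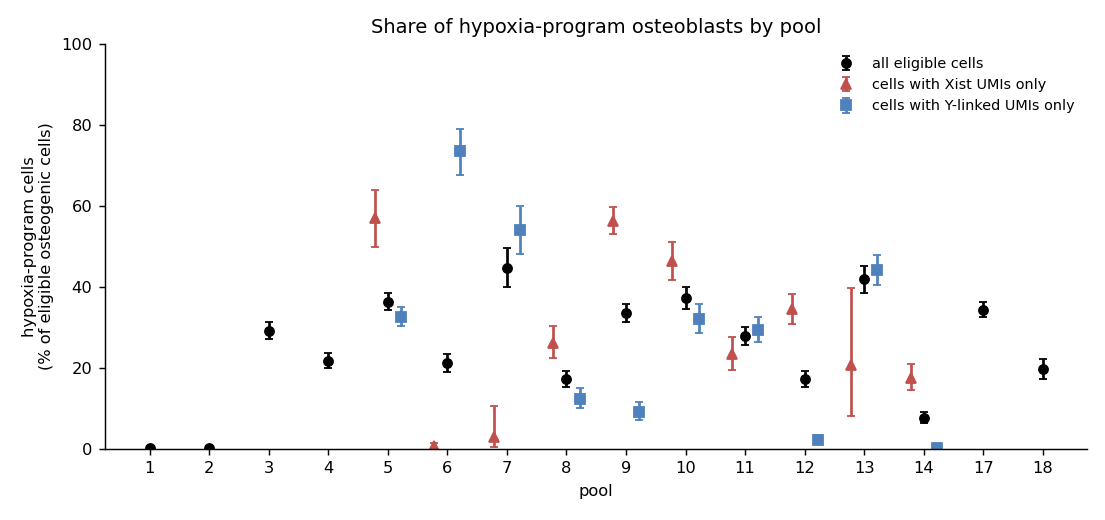
Percent of eligible osteogenic cells that were hypoxia-program cells (vertical axis) in each of 16 pools (horizontal axis), for all cells (black circles) and, in 10 pools, for cells with *Xist* UMIs only (red triangles) and Y-linked UMIs only (blue squares); bars are exact 95% intervals of counting error. Pools 1 and 2 lie near 0, and the triangles and squares of pools 6, 7, 9 and 12 lie far apart, in either order.

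The share was higher in *Xist* cells in 6 pools and in Y-linked cells in 4, with means of 28.5% and 29.0%. The mean difference was -0.430 percentage points ± 38.2 (SD, n = 10; exact paired permutation test, two-sided, p = 0.973), so no direction by sex passed the test. Its size within a pool was 6.10 to 73.1 points (median 23.8) and exceeded 20 points in 6 pools. *Xist* and Y-linked cells come from different mice, so differences between the mice of a pool enter each comparison of hypoxia-program with low-score cells below. The first comparison was therefore repeated with sums made apart for *Xist* and Y-linked cells, in 18 blocks of pool and kind. Mice of the same sex in a pool stay mixed there, and their part was not tested. Eligible cells with UMIs of both kinds, such as 218 in pool 6 and 195 in pool 14, entered neither kind. UMIs of the other sex can thus occur in a cell, so the kinds may not be clean, which was not tested.

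Within pools, hypoxia-program cells had slightly fewer UMIs. In the 14 pools with at least 20 cells of both classes (all but pools 1 and 2), the median UMI count was 14678 to 30474 in hypoxia-program cells and 16879.5 to 34445 in low-score cells, and was lower in hypoxia-program cells in 12 pools. Mitochondrial UMIs were 1.37% to 2.81% against 2.35% to 3.61% by pool median, lower in 14 of 14 pools. The fits below were repeated with each cell thinned to 5000 UMIs and the classes chosen again, and the part of mitochondrial UMIs was not tested. Of 5638 hypoxia-program cells that were also eligible in the other run, which resequenced the same droplets, 5062 (89.8%) were chosen again. Of 106313 barcode sequences, 1521 occurred in more than 1 pool.

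The score genes are described with no test, since they chose the cells. Levels are counts per 1000000 (CPM), the UMIs of a gene scaled by all UMIs of a class in a pool, and the 3 values given are the lowest, median and highest of 14 pools. *Egln3* (chr12:54178981-54203860), a HIF prolyl hydroxylase, was at 157, 231 and 364 CPM in hypoxia-program cells and 6.80, 22.2 and 67.4 CPM in low-score cells. *Ero1l* (chr14:45283087-45318771), an oxidase that drives disulfide bond formation in the endoplasmic reticulum, was at 325, 859 and 1188 CPM against 46.4, 110.2 and 284 CPM. *Bnip3* (chr7:138890836-138909519), which acts in the removal of mitochondria, was at 929, 1111 and 1207 CPM against 146, 269 and 429.9 CPM. In all of these the ranges of both classes did not overlap.

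*Ndrg1* (chr15:66929318-66969640), a stress-response gene, lay at 561 to 1020.3 CPM against 102 to 258 CPM. *Car12* (chr9:66713686-66766845), a membrane carbonic anhydrase that acts in pH control, lay at 549 to 912 CPM against 38.6 to 333 CPM. *P4ha2* (chr11:54100095-54131665), a subunit of collagen prolyl 4-hydroxylase, lay at 563 to 772 CPM against 117 to 446 CPM and had the smallest ratio of the 8 genes. *Adm* (chr7:110627661-110629820), which encodes the vasodilator peptide adrenomedullin, lay at 70.6 to 309.8 CPM against 10.5 to 41.8 CPM. *Ankrd37* (chr8:45996902-46005707) lay at 92.6 to 243 CPM against 8.86 to 56.4 CPM. Each of the 8 genes was higher in hypoxia-program cells in 14 of 14 pools.

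**Figure D2:**
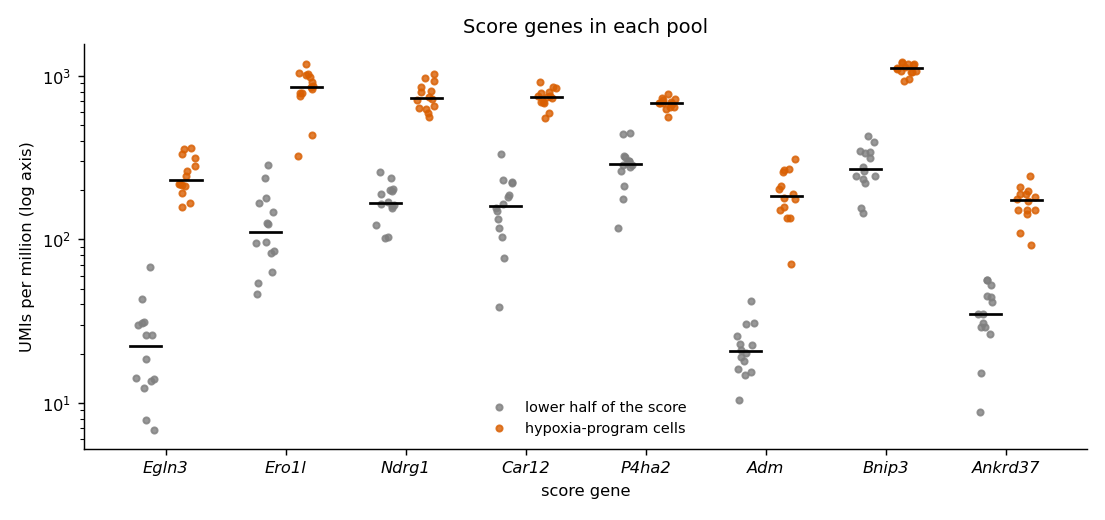
Level of each score gene (horizontal axis) in CPM on a log axis, 1 point per pool (14 pools), in low-score cells (grey) and hypoxia-program cells (orange), with the median as a bar. *Egln3* and *Adm* are set furthest apart and *P4ha2* least, a separation that the score itself made.

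To see how far a score gene followed the others, each was left out of the score and the cells were chosen again by the rest. The gene left out was still higher in the chosen cells in 14 of 14 pools, by 3.20 ± 0.93 (log2 ratio, mean ± SD, n = 14) for *Egln3*, 2.58 ± 0.60 for *Adm*, 2.46 ± 0.72 for *Ero1l* and, at the low end, 1.13 ± 0.45 for *P4ha2*. Under this choice the ranges of pools met or overlapped for *Ero1l* and *Adm*.

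For comparison, the score genes were read in 5122 leukocyte droplets (at least 10 *Tyrobp* UMIs per 10000, median 7975 UMIs), where UMIs can come from free RNA or from the leukocytes themselves. After thinning to 5000 UMIs, *Egln3* was seen in 64.0% of hypoxia-program cells, 9.83% of low-score cells and 7.03% of leukocyte droplets. *Car12* was seen in 84.2%, 37.4% and 4.31%, and *P4ha2* in 95%, 63.3% and 9.90%. The share of low-score cells with *Egln3* thus lay near that of leukocyte droplets, while for *Car12* and *P4ha2* it lay well above. *Ndrg1* was seen in 57.5% of leukocyte droplets, more than in low-score cells (49.2%), so for this gene these droplets give no background level.

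The label of osteoblasts was checked against defining genes. All eligible cells had already been chosen by *Ibsp*. The summed level of the 23 osteoblast maturity genes was 36391 to 54932 CPM in hypoxia-program cells and 42325 to 71635 CPM in low-score cells. It was higher in hypoxia-program cells in 2 of 14 pools. In hypoxia-program cells the alkaline phosphatase gene *Alpl* was at 1426 to 1996 CPM, and *Sp7*, which encodes the osteoblast factor osterix, at 91.6 to 178 CPM. Summed osteocyte genes were at 2453 to 4040 CPM against 2441 to 4251 CPM, so the label does not exclude osteocyte-like cells. Of leukocyte markers, 16 of 19 were abundant enough to test, and none was called in either direction against low-score cells by edgeR (adjusted p of 0.05), 3 had an unadjusted p under 0.05, DESeq2 called 1 lower, and 3 of 14 were lower after thinning. Without pool 13, 3 were higher, and with the limit set within each pool 3 were higher and 2 lower. Their sum was 232 to 806 CPM in hypoxia-program and 300.0 to 1079 CPM in low-score cells. Of 10 endothelial, glial and red cell markers, *Pecam1* alone could be tested and was not called (0.19 ± 0.12, adjusted p = 0.196), and the list summed to 5.09 to 25.7 CPM against 6.59 to 19.2 CPM.

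The first comparison asks which other genes went with the score within a pool. For each pool the UMIs of a class were added up, the sums were compared by the quasi-likelihood test in edgeR with pools as blocks, and changes are log2 fold changes ± SE from that fit with Benjamini-Hochberg adjusted p. Since the score set the classes, this shows which genes vary with it and is no independent evidence for a class of cells. Of 12046 genes tested, 3805 were higher (31.6%) and 3798 lower (31.5%) in hypoxia-program cells. The counts of gene lists below are to be read beside these shares. With a log2 fold change of at least 0.5 besides, these were 1514 (12.6%) and 1488 (12.4%). The pools of both classes did not overlap for 268 higher genes (2.22%) and 261 lower genes (2.17%).

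Changes are relative to edgeR's TMM scaling. Scaling on total UMIs shifted the median of all genes by -0.11, and higher genes were then 35.9% of those called in place of 50%. On that scale 2763 genes were higher and 4943 lower, and list counts on total UMIs are to be read beside these. In summed counts, fewer cells with a transcript and less of it per cell cannot be told apart.

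Glucose handling rose as a group. All 18 of 18 tested glycolysis genes were higher, with a median change of 0.99 against -0.00411 over all genes tested, and pools did not overlap for 10 of them. *Slc2a1*, which encodes the glucose transporter GLUT1, was at 164, 233 and 327 CPM in hypoxia-program cells and 24.4, 48.0 and 97.7 CPM in low-score cells. Every pool of the former lay above every pool of the latter, and the change was 2.36 ± 0.14 (adjusted p = 2.14e-10). *Eno2*, an enolase best known from neurons, rose by 3.00 ± 0.25 (adjusted p = 9.55e-09), from a median of 8.89 to 92.0 CPM, with ranges that overlapped.

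*Pgk1*, phosphoglycerate kinase, was at 1596 to 2065 CPM against 414 to 1257 CPM, a change of 1.14 ± 0.11 without overlap. *Ldha*, which makes lactate from pyruvate, was at 2298 to 2978 CPM against 1302 to 2141 CPM and rose by 0.67 ± 0.05, again without overlap. The phosphofructokinase *Pfkp* rose by 2.30 ± 0.15, far more than its relatives *Pfkm* (0.97) and *Pfkl* (0.97). *Slc16a3*, the lactate exporter MCT4, rose by 1.28 ± 0.11 and *Slc16a1*, a further lactate carrier, by 0.35 ± 0.10, a call lost on total UMIs. *Gapdh* rose by 1.35 ± 0.16, in 13 of 14 pools.

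*Hk2*, a hexokinase, had the smallest change of the list (0.15 ± 0.06, adjusted p = 0.0330), with more CPM in only 7 of 14 pools, while *Hk1* rose by 1.40 ± 0.07. The call of *Hk2* was lost in 13 of 25 repeats of the fit, among them those without pool 4, 6, 10, 11, 14, 17 or 18. On total UMIs 16 of the 18 genes were called, all higher. In blocks of pool and *Xist* or Y-linked kind, 18 of 18 were higher, with a median of 0.99.

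Of 52 tested HIF target genes outside the score, a list that shares members such as *Slc2a1* and *Pgk1* with glycolysis, 43 were higher and 4 lower (median 0.97). *Stc1*, a secreted regulator of calcium and phosphate, had the largest change of the list (3.27 ± 0.18, adjusted p = 8.90e-11), at 14.2, 29.6 and 43.7 CPM against 1.19, 3.3 and 9.13 CPM, without overlap. *Car9*, a carbonic anhydrase like *Car12*, rose by 2.55 ± 0.19. The glycogen enzymes *Gbe1* and *Gys1*, which branch and build glycogen, rose by 2.32 ± 0.15 and 2.19 ± 0.13. *Vegfa*, the main signal for vessel growth, was at 368, 473 and 546 CPM against 194, 254 and 331 CPM and rose by 0.94 ± 0.05 (adjusted p = 8.06e-11), without overlap of the pools.

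The list did not move as a whole. *Ddit4*, an inhibitor of mTOR signaling known to respond to low oxygen, was lower (-0.37 ± 0.07, adjusted p = 9.62e-05), at 46.6, 53.2 and 75.8 CPM against 62.3, 72.8 and 111 CPM. *Pfkfb4* (-0.41), the growth factor receptor *Egfr* (-0.66) and *Angptl4* (-1.01), an inhibitor of lipoprotein lipase, were lower as well. *Bhlhe40*, *Bhlhe41*, *Edn1*, *Hmox1* and *Pnrc1* were not called. In blocks of pool and kind *Bhlhe41* was higher (0.27, adjusted p = 0.0377), and in all 44 of 51 were higher and 4 lower.

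Within the HIF pathway itself, 7 of 8 tested components were higher and none lower (median 0.54), although on total UMIs 6 were higher and 1 lower. *Egln1*, the prolyl hydroxylase PHD2 and itself a HIF target, was at 390.2, 555 and 681 CPM against 85.6, 154 and 260.2 CPM (1.96 ± 0.12, adjusted p = 2.14e-10). *Vhl* rose by 1.34 ± 0.06 from a median of 12.8 to 30.6 CPM, and neither gene's pools overlapped. *Hif1a*, the alpha subunit, was at 187, 268 and 367 CPM against 114, 155 and 199 CPM and rose by 0.88 ± 0.06. *Epas1*, which encodes the alternative subunit HIF-2 alpha, was not called (-0.09 ± 0.08, adjusted p = 0.326).

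Respiratory genes went the other way in smaller steps. Of 73 nuclear genes of the respiratory chain, 50 were lower and 7 higher (median -0.19), 5 of them lower by 0.5 or more. On total UMIs 62 were lower and 5 higher. Their sum was 16718, 18260.4 and 21973 CPM against 19137, 21291 and 26223 CPM, lower in each of 14 pools although the ranges overlap. *Ndufa4*, a subunit of cytochrome oxidase, had the largest decrease (-0.99 ± 0.06, adjusted p = 1.41e-10), from a median of 311 to 145 CPM. *Ndufv3*, a complex I subunit, rose by 0.89 ± 0.06 in 14 of 14 pools, against the direction of its list.

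Of the 13 protein genes of the mitochondrial genome, 9 were lower and 1 higher (median -0.37). *mt-Cytb* was at 1761, 2063 and 3116 CPM against 3320, 3923 and 4923 CPM (-0.78 ± 0.07, adjusted p = 1.66e-08) and was the one gene of this list whose pools did not overlap. *mt-Co1* was higher (0.25 ± 0.09, adjusted p = 0.0244), but on total UMIs 11 genes were lower and 0 higher. Its call was also lost without pool 5, 8, 13 or 18 and with *Ibsp* of at least 5%. The limit of 10% mitochondrial UMIs bears on this list.

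**Figure D3:**
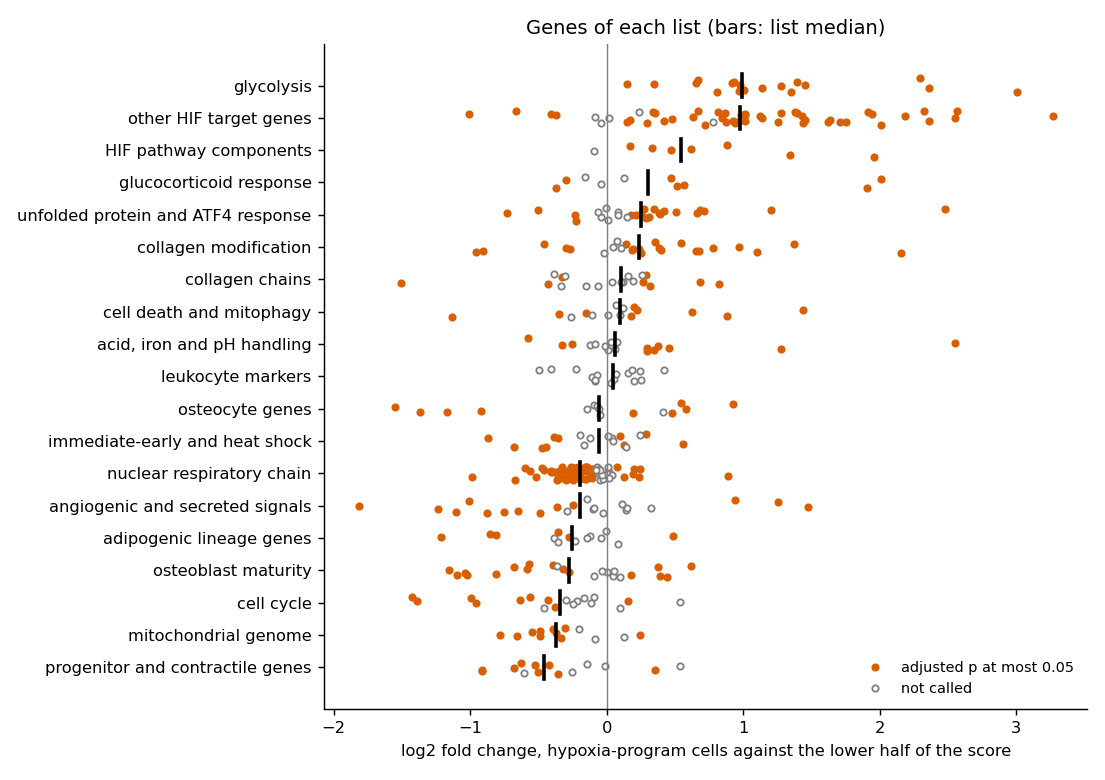
Log2 fold change of each tested gene in hypoxia-program against low-score cells (horizontal axis; 1 point per gene, fit over 14 pools), by gene list (rows, ordered by median); orange points passed an adjusted p of 0.05, open points did not, and bars mark the list median. Glycolysis and other HIF target genes lie mostly right of 0, progenitor and contractile, mitochondrial and cell cycle genes mostly left; scaling on total UMIs would move all points left by about 0.11, which takes the bars of acid handling, cell death and collagen chains to or below 0.

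Osteocalcin, the late osteoblast protein encoded by *Bglap* and its copies, was lower in hypoxia-program cells. *Bglap* was at 862, 5569 and 10067 CPM against 4688, 9696 and 17729.9 CPM (-1.04 ± 0.27, adjusted p = 0.00246), lower in 12 of 14 pools. *Bglap2* changed by -1.16 ± 0.32 and *Bglap3* by -0.81 ± 0.26, and reads of these near-identical genes cannot be assigned with certainty. The ranges of both classes overlapped widely. In blocks of pool and *Xist* or Y-linked kind the change was smaller, at -0.72 ± 0.22 for *Bglap* (adjusted p = 0.00660) and -0.74 ± 0.31 for *Bglap2* (adjusted p = 0.0375).

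Osteocalcin-high cells, the highest 25% of eligible cells by summed osteocalcin UMIs per 10000, were rarer among hypoxia-program cells. They made up 1.03%, 15% and 27.2% of hypoxia-program cells (lowest, median and highest pool) and 10.2%, 27.3% and 52.8% of low-score cells. The mean difference was -15.7 percentage points ± 14.5 (SD, n = 14), lower in 12 of 14 pools (exact paired permutation test, two-sided, p = 0.00110). The order was reversed in pool 13, with 11.3% against 10.2%, and in pool 18, with 19.2% against 14.8%. In all, 777 hypoxia-program cells were osteocalcin-high, so the classes overlap.

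Other osteoblast genes split in direction. Of 23 maturity genes, which include osteocalcin, 11 were lower and 5 higher (median -0.27). *Smpd3*, a sphingomyelinase needed for mineralization, was at 106, 210.2 and 569.8 CPM against 213, 530.4 and 839 CPM (-1.02 ± 0.08). *Runx2*, the master regulator of the lineage, fell by 0.39 ± 0.04, lower in 14 of 14 pools. *Alpl*, by contrast, rose by 0.38 ± 0.04 in 14 of 14 pools, and the homeobox gene *Dlx3* by 0.62 ± 0.07. *Sp7*, *Spp1* and *Sparc* were not called, with changes of 0.05, 0.05 and 0.10. *Sparc*, a bone matrix gene, was higher in blocks of pool and kind (0.19, adjusted p = 0.00309), as it was without pool 6.

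Collagen-modifying genes were mostly higher, with 16 of 25 higher and 5 lower (median 0.24). *P3h2*, a prolyl 3-hydroxylase, was at 26.3, 54.8 and 78.4 CPM against 4.25, 13.3 and 25.3 CPM (2.16 ± 0.14), without overlap. The lysyl oxidases, which crosslink collagen, divided: *Loxl4*, *Loxl2* and *Lox* rose by 1.37, 1.10 and 0.67, while *Loxl1* fell by 0.96 ± 0.12. The prolyl 4-hydroxylase subunit *P4ha1* rose by 0.97 ± 0.11 and its partner *P4hb* by 0.78 ± 0.07, whereas the scarce *P4ha3* (median 1.74 CPM) was lower (-0.91).

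For collagen chains no direction can be given. Of 19, 5 were higher and 3 lower (median 0.10), and on total UMIs 5 were higher and 6 lower. In blocks of pool and kind 7 of 18 were higher and 4 lower (median -0.05). *Col5a1* was at 1038, 1271 and 1413 CPM against 494, 756 and 961 CPM and rose by 0.82 ± 0.07, without overlap. *Col1a1* rose by 0.32 ± 0.06, and its partner in type I collagen, *Col1a2*, was not called (0.12 ± 0.07, adjusted p = 0.121). *Col1a2* was higher in blocks of pool and kind (0.26, adjusted p = 0.00187), as it was without pool 6 and with the limit set within each pool.

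Among secreted signals 3 of 22 were higher, of which *Vegfa* is given above, and 10 lower. *Bmp2*, a bone morphogenetic protein, was at 92.5, 128 and 222 CPM against 39.5, 51.6 and 89.9 CPM (1.47 ± 0.07, adjusted p = 8.14e-12), without overlap, and *Vegfb* rose by 1.26 ± 0.10. *Tnfsf11*, which encodes the osteoclast signal RANKL, was scarce in both classes, at 0.141, 0.427 and 1.25 CPM against 0.539, 1.52 and 4.19 CPM, and fell by 1.81 ± 0.23 (adjusted p = 1.75e-06). At such levels the change rests on few UMIs per pool, and *Tnfsf11* was not among the genes tested in blocks of pool and kind. *Csf1*, the other main osteoclast factor, fell by 0.75 ± 0.08 and *Il6* by 1.24 ± 0.18. The RANKL decoy receptor gene *Tnfrsf11b* was not called (0.32 ± 0.24).

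Of 27 genes of the unfolded protein and ATF4 response, 16 were higher and 4 lower (median 0.25). *Trib3*, a pseudokinase induced by ATF4, was at 33.8, 93.7 and 115 CPM against 5.33, 17.4 and 45.6 CPM (2.48 ± 0.19), and *Ddit3*, which encodes the stress factor CHOP, rose by 1.20 ± 0.10. The chaperone gene *Hspa5* and the factor gene *Xbp1* were not called (0.08 and -0.01), and *Dnajc3*, a further chaperone, fell by 0.73 ± 0.08.

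Of 15 genes of cell death and mitophagy 6 were higher and 3 lower, but 3 and 5 on total UMIs. Over all genes tested in the first fit 31.6% were higher and 31.5% lower. On total UMIs 2763 of all genes were higher and 4943 lower, so no direction is given for this list. *Bnip3l*, a relative of *Bnip3* in mitophagy, was at 361, 417 and 486 CPM against 139, 162 and 218 CPM (1.44 ± 0.06), and the survival gene *Bcl2l1* rose by 0.89 ± 0.10. *Pmaip1*, a promoter of cell death, fell by 1.14 ± 0.13.

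Metallothioneins, which bind zinc and copper, were much higher. *Mt1* was at 1466, 2192 and 3367 CPM against 280.4, 620.2 and 1226 CPM (2.01 ± 0.13, adjusted p = 3.48e-10) and *Mt2* changed by 1.91 ± 0.11, neither with overlap. They belonged to a list of 10 glucocorticoid response genes of which 5 were higher and 2 lower. *Nr3c1*, the receptor, rose by 0.57 ± 0.05, *Tsc22d3* and *Errfi1* fell by 0.30 and 0.37, and *Fkbp5*, *Klf9* and *Sgk1* were not called.

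Contractile, progenitor and cycling genes were mostly lower where called. Of 14 progenitor and contractile genes 8 were lower and 1 higher (median -0.46), with the smooth muscle actin gene *Acta2* at -0.92 ± 0.14. Of 18 cell cycle genes 8 were lower and 1 higher, and *Rrm2*, which supplies nucleotides for DNA replication, was at 1.5, 3.96 and 6.11 CPM against 7.03, 10.2 and 17.2 CPM (-1.39 ± 0.11). Without pool 6, 13 of these genes were lower and 0 higher, and with *Ibsp* of at least 5% 4 were lower and 1 higher (median -0.06 in place of -0.34). Of 14 adipogenic genes 5 were lower and 1 higher, against 31.5% lower and 31.6% higher over all genes tested. The higher gene was *Pparg* (0.49 ± 0.16), the master regulator of fat cells. *Pparg* was not called in blocks of pool and kind (0.33, adjusted p = 0.112), and 7 genes of the list were lower and 0 higher, the same counts as after thinning.

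The counts of the 3 lists that follow stand beside 31.6% higher and 31.5% lower over all genes tested. Of 15 osteocyte genes 5 were higher and 4 lower, near those shares. The higher genes were led by the hyaluronan receptor gene *Cd44* (0.93 ± 0.07) and the lower genes by the proteoglycan gene *Omd*. *Dmp1*, *Phex*, *Mepe* and *Sost* were not called. *Sost*, which encodes the Wnt inhibitor sclerostin, was higher in blocks of pool and kind (0.95, adjusted p = 0.0260, against 0.42 in the first fit), and the list median was 0.14 in place of -0.05. Of 18 immediate-early and heat shock genes, which can mark stress during dissociation, 4 were higher and 6 lower. Of 17 genes of acid, iron and pH handling 7 were higher and 3 lower, with a median of 0.06 that became -0.05 on total UMIs.

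By the rule for the largest changes (same direction in 14 of 14 pools, at least 50 CPM in a class), *Vwa1*, which encodes a matrix protein, came first. It was at 32.7, 78.8 and 119 CPM against 1.19, 3.89 and 14.4 CPM, a change of 4.07 ± 0.24 (adjusted p = 1.49e-10). *Rtkn2* (3.24 ± 0.20) came next, then *Eno2*, given above, and *Baiap2l2* (2.68 ± 0.17), all but *Eno2* without overlap of the pools. *Apln* and *Adm2*, which encode the vascular peptides apelin and adrenomedullin 2, rose by 2.35 ± 0.19 and 2.28 ± 0.13, also without overlap. *Zfp395* rose by 2.56 ± 0.16, and *Trib3*, *Slc2a1*, *Gbe1*, *Pfkp* and *Gys1*, given above, complete the 12.

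Among decreases, *Ccnd1*, which encodes cyclin D1, was at 16.4, 49.9 and 104 CPM against 182, 334 and 479 CPM, a change of -2.50 ± 0.10 (adjusted p = 2.37e-12) without overlap. The neutrophil chemokine gene *Cxcl1* changed by -2.03 ± 0.19, *Tm4sf1* by -1.65 ± 0.11 and the atypical cadherin gene *Fat3* by -1.62 ± 0.15, the last without overlap. The proteoglycan genes *Omd* and *Ogn* changed by -1.55 ± 0.12 and -1.37 ± 0.14 and the collagen gene *Col8a1* by -1.5 ± 0.15. *Tuba1a* (-1.29), the Wnt modulator gene *Sfrp2* (-1.29), *Irf1* (-1.27), the cholesterol synthesis gene *Cyp51* (-1.23) and *Gas6* (-1.22) complete the 12. In blocks of pool and *Xist* or Y-linked kind 24 of these 24 genes were called in the same direction, at 0.843 to 1.22 times the log2 value given here. They were chosen as large changes in the same pools, so the shared direction was largely set beforehand.

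Levels followed the score in steps and not only at its upper end. Eligible cells of each of 16 pools were cut into 4 equal bins of the score, a description with no test. The summed glycolysis list was at 5957 ± 1669.8 CPM (mean ± SD, n = 16) in the lowest bin, then 9133 ± 2698 and 11038 ± 2972, and 14047 ± 3104 CPM in the highest, and it climbed at every step in 16 of 16 pools. *Slc2a1* went from 31.1 ± 13.1 to 216 ± 87.0 CPM, likewise at every step in 16 of 16 pools. The nuclear respiratory chain list went from 22938 ± 2138 to 19177 ± 2508 CPM, downward at every step in 15 of 16 pools, and the mitochondrial genome from 32334 ± 5245 to 23973 ± 3983 CPM in 12.

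Osteocalcin had another shape. Its sum was 14484 ± 6551, 15144 ± 5866 and 13223 ± 6283 CPM in the lower bins and 8507 ± 4788 CPM in the highest, so that most of the difference lay in the last step. *Col1a1* had its main step at the other end, from 29761 ± 5755 to 37240.1 ± 6115 CPM, and reached 39644 ± 6150.3 CPM. *Mt1* was at 491 ± 218, 760.1 ± 311, 1137 ± 465 and 2111 ± 767 CPM. *Sp7* stood at 152 ± 48.2 in the lowest and 136 ± 23.1 CPM in the highest bin, and was higher in the highest bin in 5 of 16 pools.

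**Figure D4:**
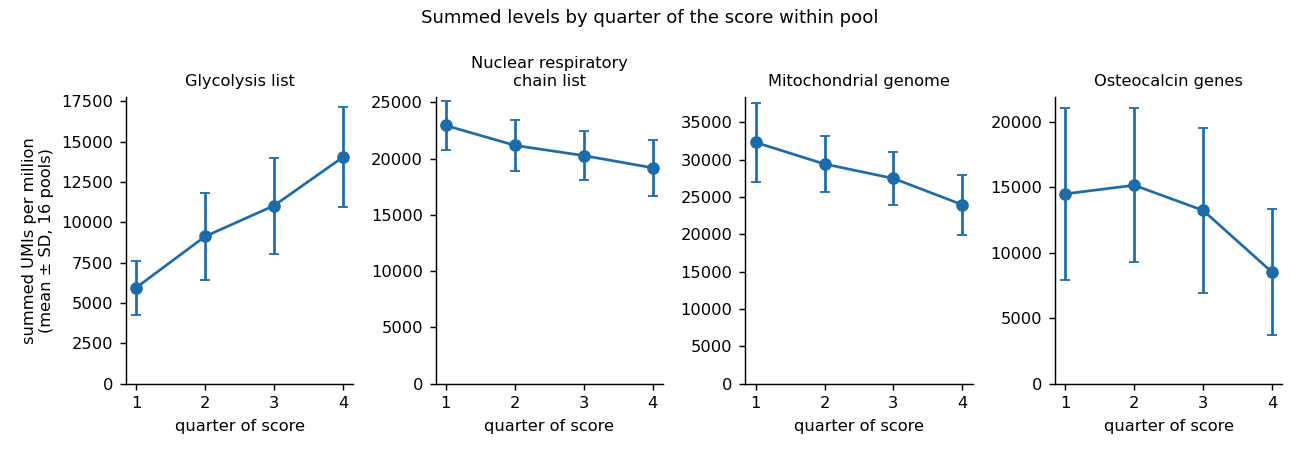
Summed CPM (vertical axes from 0; points and bars are mean ± SD over 16 pools) of 4 gene sets in 4 equal bins of the score within a pool (horizontal axis, bin 4 highest). Glycolysis climbs from 5957 to 14047 CPM, both respiratory sets decline, and osteocalcin declines mainly in the last bin.

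Pools 1 and 2 also had low glycolysis sums, given only as a description, since hypoxia-program cells are part of the sum. Over all eligible cells these were 5094 and 4773 CPM, against a median of 10690 and a highest value of 13159 CPM over 16 pools. The share of hypoxia-program cells did not pass a permutation test of Pearson's r or Spearman's rho with depth or with the share of barcodes that were eligible (n = 16 pools, p adjusted over 7 relations computed). The 7 include sums of gene lists over these cells, such as glycolysis, which are not used as tests here. With the median UMI count per cell Pearson's r was 0.22 and rho 0.03 (adjusted permutation p = 0.493 and 0.917; r without pools 1 and 2 0.21). With the share of barcodes that were eligible r was 0.29 and rho 0.19 (adjusted permutation p = 0.378 and 0.675; r without pools 1 and 2 -0.03).

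The second comparison asks how hypoxia-program cells differ from osteoblasts with most osteocalcin. It set 4940 hypoxia-program cells that were not osteocalcin-high against 4416 osteocalcin-high cells outside the class in 14 pools and left out the osteocalcin genes, which chose the latter. Of 11131 genes, 3381 were higher (30.4%) and 3248 lower (29.2%) in hypoxia-program cells. On total UMIs the median of all genes shifted by 0.10 and higher genes were 64.6% of those called in place of 51.0% (4338 higher and 2372 lower). The hypoxia-program cells are shared with the first comparison.

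Glycolysis genes were higher, 17 of 18 with 0 lower (median 0.88), as were 39 of 51 other HIF target genes, with 7 lower (median 0.77). Of 73 nuclear genes of the respiratory chain 47 were lower and 3 higher (median -0.20). Of 20 maturity genes other than osteocalcin 13 were lower and 5 higher (median -0.41).

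Against these cells, progenitor, contractile and cycling genes were mostly higher where called. Of 14 progenitor and contractile genes 8 were higher and 1 lower (median 0.49), and of 18 cell cycle genes 11 and 1 (median 0.62). After thinning 7 cell cycle genes could be tested, of which 5 were higher, and with the limit set within each pool 4 of 18 were higher. Summed progenitor and contractile genes were at 4128, 5469 and 9088 CPM against 3516, 4238 and 5168 CPM, higher in 14 of 14 pools. Summed collagen chains were at 62576, 77509 and 86726 CPM against 81415, 96698 and 120491 CPM, lower in each of 14 pools, although 8 of the chains were higher and 8 lower.

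By the rule for large changes, *Vwa1* (3.40 ± 0.21), *H19* (2.67 ± 0.11), *Eno2* (2.64), *Fabp5* (2.59 ± 0.14), *Rtkn2* (2.49), *P3h2* (2.40), *Zfp395* (2.28) and *Trib3* (2.23) were highest. *Fabp5*, a fatty acid carrier, was at 327, 628 and 1472 CPM against 57.1, 98.2 and 173 CPM, without overlap. *H19*, an imprinted noncoding RNA, was at 18.3, 68.2 and 119 CPM against 3.23, 10.2 and 18.4 CPM, ranges that met only at their edges.

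*Mlip* (-2.21 ± 0.16), *Ccnd1* (-2.12), *Cxcl1* (-2.01), *Dcn* (-1.87 ± 0.18), *Pgam2* (-1.64), *Omd* (-1.61) and *Rom1* (-1.55) were among the lowest. *Dcn*, which encodes the collagen-binding proteoglycan decorin, was at 18.7, 34.6 and 66.6 CPM against 64.8, 119 and 213 CPM. *Pgam2*, the muscle form of a glycolytic enzyme, went against the direction of the glycolysis list.

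The third comparison asks whether the score went with the same genes in other stromal cells of the cultures, those with less than 1% *Ibsp* and at least 20 *Col1a2* UMIs per 10000. Of 6826 such cells 471 reached the score limit, and low-score stromal cells were those at or below the median score of the stromal cells of their pool. In 10 pools each of the 4 classes had at least 20 cells. The gap in score between high and low was 1.08 to 1.43 in stromal and 0.79 to 1.32 in osteogenic cells (difference of class medians by pool), wider in stromal cells in 10 of 10 pools. A gene that follows the score could therefore change more in stromal cells by the choice of classes alone, and for such genes population and gap cannot be told apart in the differences of this comparison. These stromal cells hold several cell types, so a high score may also select among types, which was not tested. The high-against-low difference was more positive in osteogenic cells for 1321 of 11770 genes (11.2%) and more negative for 1667 (14.2%) by the interaction term in edgeR. On total UMIs the median shifted by 0.23, and 79.8% of called genes were more positive in place of 44.2%.

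The median change of 52 HIF target genes was 1.07 in osteogenic and 1.84 in stromal cells, and that of 18 glycolysis genes 1.07 and 1.83. *Slc2a1* changed by 2.53 ± 0.15 in osteogenic and 3.91 ± 0.15 in stromal cells, *Egln1* by 2.10 ± 0.12 and 3.24 ± 0.12, and *Pfkp* by 2.49 ± 0.15 and 2.41 ± 0.12. By the interaction term 42 of the 52 HIF target genes were more negative in osteogenic cells and 3 more positive, against 14.2% and 11.2% of all genes. Of the 18 glycolysis genes 15 were more negative and 0 more positive. On total UMIs 34 HIF target and 14 glycolysis genes were more negative. Since the gaps in score differ, population and gap cannot be told apart in these counts.

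The HIF target genes with a more positive change in osteogenic cells were *Stc1*, *Igfbp3* and *Plin2*. *Stc1* changed by 3.52 ± 0.17 in osteogenic and 1.57 ± 0.25 in stromal cells (difference 2.03 ± 0.35, adjusted p = 4.93e-05). *Igfbp3*, a binding protein for insulin-like growth factors, rose by 1.26 ± 0.23 in osteogenic cells and changed by -1.93 ± 0.36 in stromal cells. *Ddit4* and *Pfkfb4* went in opposite directions in osteogenic and stromal cells. *Ddit4*, lower with the score in osteogenic cells (-0.39 ± 0.09), was higher in stromal cells (0.64 ± 0.14, difference -1.05 ± 0.17, adjusted p = 2.02e-05), and so was *Pfkfb4* (-0.43 ± 0.12 and 0.90 ± 0.20, difference -1.41 ± 0.24, adjusted p = 5.15e-05).

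*Bmp2* rose with the score in osteogenic cells (1.55 ± 0.07) and was not called in stromal cells (-0.31 ± 0.22, adjusted p = 0.256; difference 1.88 ± 0.26, adjusted p = 2.30e-06). *Bglap* fell in osteogenic cells (-1.48 ± 0.28) and was not called in stromal cells (0.74 ± 0.40, adjusted p = 0.129; difference -2.40 ± 0.51, adjusted p = 0.000627). *Adipoq*, which encodes adiponectin, changed by -2.26 ± 0.33 in stromal cells and was not called in osteogenic cells (0.14 ± 0.13; difference 2.39 ± 0.50, adjusted p = 0.000600). Of 14 adipogenic genes the difference was more positive in osteogenic cells for 5 and more negative for 2.

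**Figure D5:**
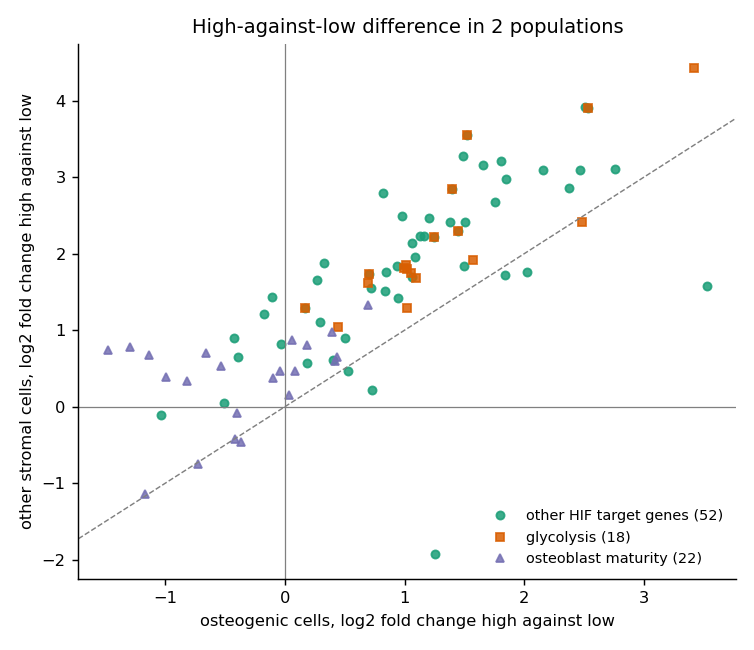
Log2 fold change of high against low score in osteogenic cells (horizontal axis) and in other stromal cells (vertical axis) of the same 10 pools, 1 point per gene of the other HIF target (green circles), glycolysis (orange squares) and osteoblast maturity (purple triangles) lists; the dashed line marks equal change. Most green and orange points lie above the line, *Stc1* and *Igfbp3* lie furthest below it, and most purple points lie above it as well; the gap in score was wider in stromal cells.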

How the data were processed

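scRNA-seq was performed on BMSC-OBs of 77 DO mice in 16 pools, each sequenced in 2 runs. The authors aligned reads to mm10 and counted with Cell Ranger (v5.0.0, per the labels). The deposited counts are raw UMIs for every gene in each listed barcode, without normalization. They are from before the study's quality filtering of cells and assignment to mice. The other run resequenced the same droplets and served as an alternative. Pools held 53990642 to 100777353 UMIs and 3460 to 9429 barcodes, and a comparison left out pools with fewer than 20 cells in a class. Pools are the replicates, so p-values of class comparisons measure how the difference within a pool varies between pools. Differences between the mice of a pool enter that difference and are not separated by the p-value.

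Sums of UMIs by class within each pool were compared in edgeR (v4.0.16 in R v4.3.3; TMM, filterByExpr, quasi-likelihood test, Benjamini-Hochberg adjustment, call at an adjusted p of 0.05) with the pool as a block, because both classes came from the same pools. Deviations of same-pool samples from the class means correlated in every pool (lowest 0.18, 0.15 and 0.23 in the 3 comparisons). In the third comparison this was computed for the osteogenic classes only, so it does not cover the stromal classes. The 8 score genes, *Ibsp* and *Tyrobp* were not tested, nor the osteocalcin genes in the second comparison. Symbols that stood for 2 gene identifiers (*Aldoa*, *Atp5o*) were left out of the lists. Named genes were the members of the gene lists and the 12 largest changes each way (8 in the other comparisons) with at least 50 CPM in a class and the same direction in every pool (direction not required for the interaction), without predicted genes and ribosomal proteins. The members, the rule and the lists were chosen with earlier results of these data known. Doublets stayed in, and removal by Scrublet scores was an alternative. On simulated counts with a log2 change of 1, the first fit recovered 99.5% of 195 changed genes among 11979, the second 97.4% of 196 among 11094, and the interaction 61.7% of 193 among 11436. Apart from the changed genes, these counts had the same expression profile in every pool and class and a fixed spread for all genes. Few genes changed, evenly up and down, so the recovery does not give the power of the fits on the real counts. Shares were compared with exact permutation tests (Python v3.11.15, scipy v1.17.1). Alternatives were the other run, thinning, doublet removal, a limit within each pool, *Ibsp* of at least 5%, limits of 20% *Rpl* and 15% *Rps* UMIs, DESeq2 (v1.42.0), no low-count filter, no block and leaving out each pool. Scaling on total UMIs and blocks of pool and *Xist* or Y-linked kind, as well as leaving score genes out in turn, were added after seeing the data. Gene coordinates are from GENCODE M21 (GRCm38) and promoters from RefSeq (GRCm38.p6). A few genes that the rule names are not reported here.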

Additional observations from a re-analysis of the deposited data

Results flagged for a closer look

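These genes were picked out because the change with the score differed between osteogenic and other stromal cells by the interaction test in edgeR; values are log2 differences between both changes, positive where the change was more positive in osteogenic cells. The gap in score between high and low was wider in stromal cells in 10 of 10 pools, and its part in these differences was not tested. They were 3.43 ± 0.63 for *Ptn*, 2.59 ± 0.54 for *Cdsn*, 2.39 ± 0.50 for *Adipoq*, 2.06 ± 0.33 for *Cxcl12*, 1.94 ± 0.30 for *Lpl*, 1.88 ± 0.27 for *Il1rn*, 1.88 ± 0.26 for *Bmp2* and 1.80 ± 0.27 for *Vcam1*. Of these 8, *Bmp2* and *Cdsn*, which encodes a skin adhesion protein, changed in osteogenic cells (1.55 ± 0.07 and 2.23 ± 0.35) and were not called in stromal cells. The other 6, among them the adipogenic genes *Adipoq* and *Lpl* and the stromal chemokine gene *Cxcl12*, were lower with the score in stromal cells, from -3.81 for *Ptn* to -1.73 for *Lpl*, and of these *Vcam1* was lower in osteogenic cells too (-0.48 ± 0.19, adjusted p = 0.0479).

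The differences were -3.12 ± 0.38 for *Fam189a2*, -2.96 ± 0.57 for *Pgam2*, -2.67 ± 0.26 for *Hbegf*, -2.60 ± 0.47 for *Slc1a1*, -2.58 ± 0.25 for *Rcan2*, -2.41 ± 0.42 for *Gal*, -2.40 ± 0.51 for *Bglap* and -2.29 ± 0.35 for *Sfrp2*. *Hbegf*, a growth factor gene, rose by 2.79 ± 0.18 in stromal cells and was not called in osteogenic cells (0.21 ± 0.15), and *Gal*, which encodes the neuropeptide galanin, rose by 2.50 ± 0.23 in stromal cells and was not called in osteogenic cells (0.09 ± 0.19). *Pgam2*, *Rcan2* and *Sfrp2* were lower with the score in osteogenic and higher in stromal cells, and *Bglap*, an osteocalcin gene, was lower in osteogenic cells (-1.48 ± 0.28) and not called in stromal cells (0.74 ± 0.40). *Fam189a2* and *Slc1a1* rose in both, by 0.90 and 1.28 in osteogenic and 3.97 and 3.88 in stromal cells.

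For *Vcam1*, an adhesion gene, the difference in pool 8 was -0.52, far from the 1.15 to 3.05 of the other 9 pools. It was the 1 pool so far from the others in 19 sets of pool values checked, of which chance gives about 1 in 20.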

How the results depend on the processing

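Of 270 list genes called in the first comparison, 200 kept their call in every alternative or fit without a pool in which they were tested. Another 70 lost it at least once, and 0 were called in the opposite direction. Not every gene was tested each time, since 383 of 399 list genes were tested after thinning and 393 in blocks of pool and kind. Thinning to 5000 UMIs, which leaves fewer UMIs and chooses the classes again, lowered the counts of higher genes to 2521 in the first comparison, of higher and lower genes to 1964 and 1974 in the second, and of more positive and more negative genes to 487 and 690 in the third. Scaling on total UMIs, added after seeing the data, gave 3383 more positive and 856 more negative genes in the third comparison. It moved the list medians of the nuclear respiratory chain from -0.19 to -0.30 (first) and from -0.20 to -0.094 (second), of osteoblast maturity from -0.41 to -0.31 (second) and of acid, iron and pH handling from 0.06 to -0.047 (first). The collagen chain median of the second comparison (0.18) became -0.081 after thinning and -0.060 with *Ibsp* of at least 5%, and that of acid, iron and pH handling (0.20) -0.022 after thinning. The other 392 list medians under these alternatives stayed within 1 SD between pools of the reported value, and 15 of them, all small, changed sign, as did 6 of 532 with a pool left out (without pool 6, 14 or 18). The genes with the largest changes of the 3 comparisons kept their direction and call in all 584 values under alternatives and 720 with a pool left out. They were chosen from these data as large, called changes, in the first and second comparisons with the same direction in every pool. Keeping their direction and call was therefore largely set by that choice, above all with a pool left out. Without the replicate block by pool, 3373 genes were higher and 3291 lower in the first comparison, 3044 and 2896 in the second, and 897 and 1115 were more positive and more negative in the third. Without this pairing 42 list genes lost their call in the first comparison, among them *Bglap2*, *Bglap3*, *Hk2* and *mt-Co1*. Of list counts of 4 or more in the first comparison not given above, those that moved by over 1.5 times without the block were the lower adipogenic genes (5 to 3), higher respiratory chain genes (7 to 4), lower unfolded protein genes (4 to 2) and higher immediate-early genes (4 to 1). On total UMIs higher acid handling genes went from 7 to 4, higher immediate-early genes from 4 to 2 and lower glucocorticoid response genes from 2 to 4, and lower cell death genes went from 3 to 5 with *Ibsp* of at least 5% or no low-count filter. Higher immediate-early genes were 2 without that filter. In the second comparison higher respiratory chain genes went from 3 to 11 on total UMIs, and lower HIF target genes from 7 to 4 there and with the limit set within each pool.

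Leaving out each pool gave 3547 to 3804 higher and 3551 to 3949 lower genes in the first comparison, 3221 to 3407 and 3086 to 3237 in the second and 1092 to 1324 and 1407 to 1530 in the third. The mean share of hypoxia-program cells was 23.0% to 26.0%, and the difference in osteocalcin-high cells -17.2 to -12.9 percentage points (largest exact permutation p = 0.00220). The cause of these movements was not tested.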
